A study of Mus musculus with 14 samples.

Results

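The Myb family of mouse transcription factors was followed across 14 thymic lymphomas measured on exon arrays. It has 3 genes, Myb, Mybl1 and Mybl2, taken as all probe sets annotated to 1 of them alone: 18 for Myb, 18 for Mybl1 and 7 for Mybl2, or 43 of 179496 probe sets with 1 gene and 3 of 15803 genes. A probe set reads about 1 exon through several short probes, and the level of a gene is the mean log2 value of its probe sets. By the strain label 7 tumours came from Vav-SB mice and 7 from CD4-SB mice, both models of acute lymphoblastic leukaemia of T cells (T-ALL). In each, the Sleeping Beauty (SB) transposase moves transposons, which mutate genes where they land. The names refer to the promoters behind the transposase: Vav is active in blood stem cells and their progeny, Cd4 in thymocytes from the CD4 and CD8 double-positive stage on. The question of the series is whether the cell of origin affects which mutations are selected. All tumours carry the transposon system and none of the 14 samples is a normal thymus. Ages and further alleles are not given in the labels used here.

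The 3 Myb proteins share a DNA-binding domain and activate transcription from closely related sites, but they are used in different cells. Myb (c-Myb) is a factor of immature blood cells. It is needed at several steps of thymocyte development and is an oncogene in T-ALL, where its locus can be duplicated or gain an enhancer. Mybl2 (B-Myb) is made in nearly all dividing cells, is switched on by E2F factors at entry into S phase, and joins the MuvB complex to activate genes of G2 and mitosis. Mybl1 (A-Myb) is best known from male germ cells, where it drives meiotic and piRNA genes, and from germinal centre B cells.

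The promoter of Mybl1 was not analysed here. Those of Myb and Mybl2 are shown because both hold the letters TTGGCGGGA close to the start, a sequence of the kind that E2F factors bind. The sequences come from RefSeq (build GRCm38.p6), run 5′ to 3′ on the gene's strand from 250 bases before to 50 after the annotated start, and have those letters in capitals.
Myb (chr10:21160935-21161234, minus strand): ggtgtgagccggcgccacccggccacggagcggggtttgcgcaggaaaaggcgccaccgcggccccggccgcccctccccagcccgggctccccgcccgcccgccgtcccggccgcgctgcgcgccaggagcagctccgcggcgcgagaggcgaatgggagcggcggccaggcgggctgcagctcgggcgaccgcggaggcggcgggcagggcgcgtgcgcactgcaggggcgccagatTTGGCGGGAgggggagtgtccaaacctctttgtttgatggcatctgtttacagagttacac
Mybl2 (chr2:163054385-163054684, plus strand): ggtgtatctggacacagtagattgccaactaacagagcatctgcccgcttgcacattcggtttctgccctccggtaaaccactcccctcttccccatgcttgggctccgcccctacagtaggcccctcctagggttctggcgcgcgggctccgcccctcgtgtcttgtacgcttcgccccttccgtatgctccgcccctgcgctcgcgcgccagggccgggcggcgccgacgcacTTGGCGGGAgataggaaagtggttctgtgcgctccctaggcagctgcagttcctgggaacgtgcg
The run begins at position -11 in Myb and -15 in Mybl2, counted from the start site. It was chosen after the sequences were seen, and 88 of 32851 promoters of this length (0.268%) hold it on either strand. The Myb recognition core AACNG occurs once in the Myb promoter and 3 times in that of Mybl2, counting both strands, and in 80.3% of all promoters. TTTGAA, the core of the CHR element of many G2/M genes, was in neither of these windows and in 17.9% of all promoters. A match describes letters, not binding.

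The arrays correlated at 0.877 to 0.968 between any 2 tumours, and their medians were 7.46 to 7.50. A shift of all transcripts at once would not be visible. Their number, 7 per model, limits the precision. T-lineage markers were present: the mean of 7 T-lineage genes lay at 10.71 to 11.14 in the Vav-SB tumours and at 9.78 to 10.75 in the CD4-SB tumours. RNA of other cells differed between the models. Averaged over 36 markers (B-cell, dendritic, myeloid and stromal), the level spanned 7.72 to 8.5 for Vav-SB and 8.21 to 9.23 for CD4-SB (8.0 ± 0.29 against 8.84 ± 0.40, SD; two-sided exact permutation p = 0.0035, n = 7 each). In bulk RNA, fewer cells of a type and less RNA per cell cannot be told apart. The group called stromal here also holds endothelial and epithelial markers. Of 12 myeloid, 8 dendritic, 7 B-cell and 9 stromal markers, 7, 3, 1 and 3 were called higher in CD4-SB, beside 7.18% of all genes. In the last group 1, Pecam1, was called higher in Vav-SB, beside 7.28% of all genes. Leaving out 1 tumour moved the dendritic count to between 1 and 5 and the B-cell count to between 1 and 4, both highest without CD4-SB replicate 2 or 7. Fcgr3 (2.44-fold), Irf8 (1.66-fold), Igkc (6.99-fold) and Krt5 (2.03-fold) were among those higher in CD4-SB. NK-cell and erythroid markers had 0 calls in limma among 5 and 3, with 1 and 1 at an unadjusted p under 0.05.

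Myb was the member that separated the models. It stood at 10.27, 10.92, 10.73, 10.58, 10.56, 10.16 and 10.23 in Vav-SB replicates 1 to 7. In CD4-SB replicates 1 to 7 it stood at 8.47, 7.05, 8.86, 9.08, 7.64, 8.38 and 9.78. All 7 Vav-SB tumours lay above all 7 CD4-SB tumours, with the gap narrowest between CD4-SB replicate 7 and Vav-SB replicate 6. The means were 10.49 ± 0.28 and 8.47 ± 0.91 (SD, n = 7 each), a log2 difference of 2.03 ± 0.33 (SE), or 4.08-fold with a 95% interval of 2.51 to 6.62 (limma, adjusted p = 0.00119). It ranked 81 among the 15803 genes by size of difference. Of all genes, 14.5% were called, 7.28% as higher in Vav-SB and 7.18% as higher in CD4-SB, and 2.51% separated the models with Vav-SB on top.

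The Vav-SB tumours lay close together in Myb and the CD4-SB tumours far apart, and the spreads were not tested against each other. Tumours that share the first number of their title were not alike: CD4-SB replicates 1 and 2 share one and were at 8.47 and 7.05, and replicates 5, 6 and 7 share another and were at 7.64, 8.38 and 9.78. With 1 tumour per number the difference was 1.98 (adjusted p = 0.000623). Leaving out any 1 tumour kept it between 1.79 and 2.25, with adjusted p up to 0.00352.

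**Figure D1:**
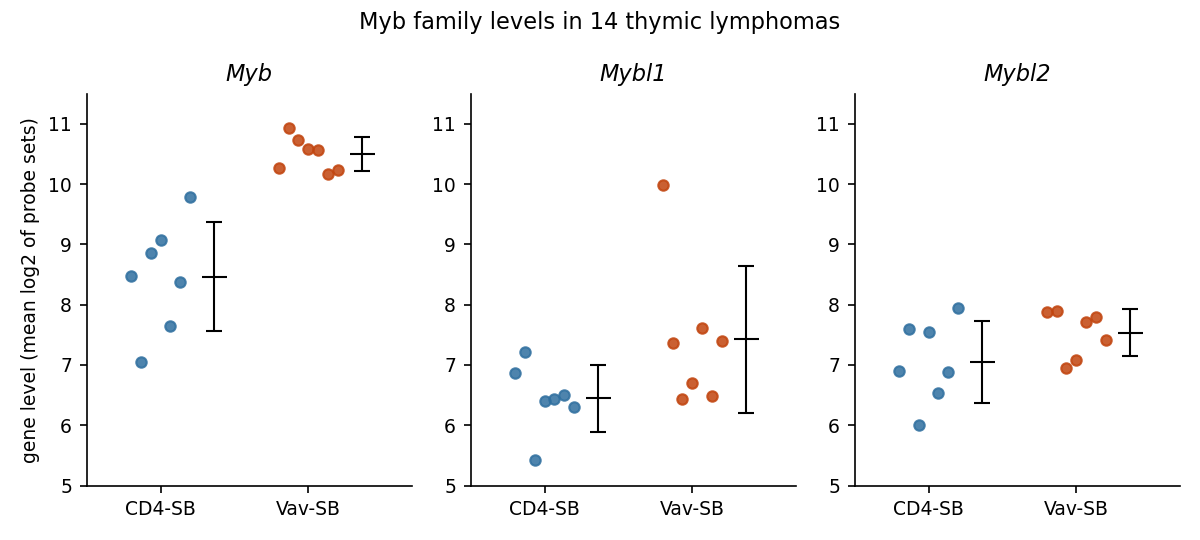
Gene levels (mean log2 of the probe sets) of Myb, Mybl1 and Mybl2 in the 14 tumours; each point is 1 tumour in order of replicate, and the bar at the right of each group is the mean ± SD of 7. Myb does not overlap between the models, Mybl1 has 1 Vav-SB tumour at 9.98, and Mybl2 overlaps.

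The difference was seen in most Myb probe sets, whose places along the transcript were not analysed here. Of the 18, 16 were called higher in Vav-SB (limma over all probe sets), where 4.53% of all probe sets were called in that direction, and in 14 the models did not overlap, against 1.76% of all probe sets. The 16 differences ran from 1.77 to 3.10 on the log2 scale, with adjusted p from 1.08e-05 to 0.0066. Probe set 4899247 had the widest, with 10.61 ± 0.43 in the Vav-SB and 7.51 ± 1.51 in the CD4-SB tumours, and probe set 4574272 the smallest p, at 10.46 ± 0.39 and 8.31 ± 0.38. Probe sets of 1 gene share the tumours and are not replicates of the models. In CD4-SB replicate 2, Myb was lowest of all 14 tumours in 17 of 18 probe sets. CD4-SB replicate 7, the highest of its model, stood above the 6 others of its model in 16 of 18.

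Only 2 Myb probe sets departed from the gene in limma's diffSplice, which tests each probe set against the others of its gene and called 1.33% of all probe sets. Probe set 4710476 read 6.64 ± 0.32 in the Vav-SB and 6.43 ± 0.40 in the CD4-SB tumours (adjusted p = 0.00121). Probe set 5602734 was at 2.55 ± 0.24 and 2.45 ± 0.05 (adjusted p = 0.000448), near 2.03, the lowest value of the whole table. Both were dim and nearly equal in the models while the rest of the gene differed. Among probe sets above the median level, which leaves both out, 16 of Myb were tested and 0 were called by diffSplice. On simulated data this test also called probe sets of unchanged genes when the spread differed between probe sets of a gene, so its calls can include false ones.

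**Figure D2:**
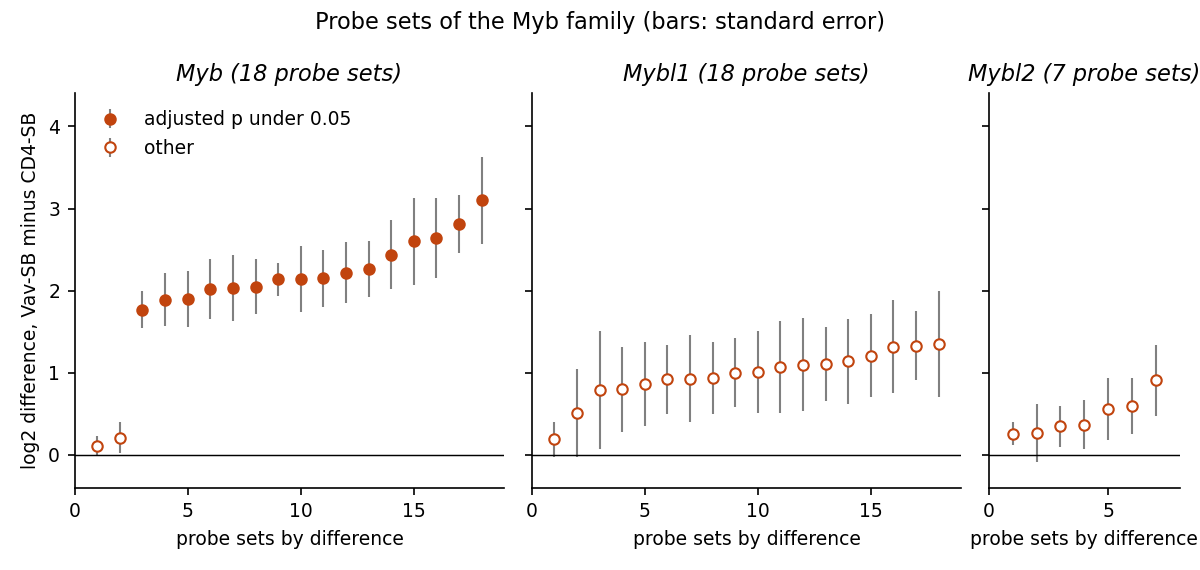
Log2 difference, Vav-SB minus CD4-SB, of each probe set of the 3 genes, ordered by size, with the standard error; filled points have an adjusted p under 0.05. In Myb 16 of 18 are filled and 2 lie near 0, and in Mybl1 and Mybl2 none is filled.

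Markers of other cells were lower in Vav-SB, where Myb was higher. With the mean of the 36 markers as a covariate the Myb difference was 2.11, close to 2.03, but its standard error grew from 0.33 to 0.55 and the call ended (adjusted p = 0.0721). In that fit 1.85% of all genes were called. Within CD4-SB, Myb and the marker mean had r = 0.12 and rho = 0.04 (exact permutation p = 0.792 and 0.963, n = 7), with r = -0.04 without the 2 tumours farthest from the median. Within Vav-SB they had r = -0.24 and rho = -0.32 (exact permutation p = 0.598 and 0.498, n = 7), with r = -0.82 without the 2 farthest, replicates 3 and 6.

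The 2 protein-coding genes that flank Myb on chromosome 10 were also called higher in Vav-SB, as were 7.28% of all genes. Ahi1, which encodes a protein of the primary cilium and is a known site of viral insertions near Myb, was at 8.64 ± 0.41 against 7.66 ± 0.32, a 1.98-fold difference (limma, adjusted p = 0.0032). Hbs1l, a factor that rescues stalled ribosomes, was at 9.75 ± 0.15 against 9.22 ± 0.26, or 1.45-fold (adjusted p = 0.00661). Both overlapped by a little: Ahi1 read 7.88 in replicate 7 of Vav-SB and 8.05 in replicate 1 of CD4-SB, and Hbs1l 9.58 and 9.61 in replicate 2 of each. Farther out, Pde7b (-0.85, adjusted p = 0.0787), Mtfr2 (0.15, adjusted p = 0.76) and Sgk1 (-0.18, adjusted p = 0.565) did not pass; these 3 were chosen by position in the gene table, with values known. The marker covariate took Ahi1 from 0.98 to 0.75 and Hbs1l from 0.53 to 0.29, and both calls ended (adjusted p = 0.205 and 0.383), in a fit that called 1.85% of all genes.

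Genes that Myb is known to activate were partly higher in Vav-SB. Of 13 measured, 6 were called higher, beside 7.28% of all genes, and 0 lower. Their median log2 difference was 0.67 beside 0.004 over all genes. Rag1, which cuts antigen receptor genes, was 21.6-fold higher (10.52 ± 0.51 against 6.09 ± 0.86, limma adjusted p = 1.65e-06), and Rag2, which works with it, was 10.4-fold higher (adjusted p = 0.00225). Ada, the adenosine deaminase of purine metabolism, was at 9.88 ± 0.53 and 7.96 ± 0.40 (3.78-fold, adjusted p = 0.000115). Gata3, a factor of T-lineage commitment, was 1.73-fold higher (adjusted p = 0.00843). In Rag1, Ada, Gata3 and Cd4, another of the 6, the models did not overlap, and in Rag2 and Cxcr4, the last of the 6, they did. Of all genes, 2.51% separated the models with Vav-SB on top. With the marker covariate only Rag1 kept its call.

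Of these 13 targets 3, Rag1, Rag2 and Cd4, are also on the list of double-positive thymocyte genes. All 12 measured double-positive genes were called higher in Vav-SB, as were 7.28% of all genes. Like the other lists, this one was chosen with earlier results of these data known, so the count is a description and not a test. The list mean was 9.89 to 10.52 against 7.09 to 8.20. The 12 include Dntt (54.9-fold), which adds nucleotides to receptor gene ends, Tcf12 (3.05-fold), an E protein, and Themis (8.13-fold), a signalling protein of positive selection. With the marker covariate 5 of the 12 were called, and Themis missed the threshold (2.77, adjusted p = 0.0503). Between Myb and that mean, r was 0.07 and rho 0.18 within Vav-SB (exact permutation p = 0.879 and 0.713, n = 7), and r 0.25 and rho 0.07 within CD4-SB (exact permutation p = 0.575 and 0.906, n = 7). Without the 2 farthest tumours r was -0.33 and 0.08.

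Most factors that sit with Myb in the core circuit of human T-ALL were not called. Of 9 measured, 3 were called higher in Vav-SB, beside 7.28% of all genes, and 0 higher in CD4-SB. The 3 were Tcf12, Gata3 and Runx1 (1.61-fold, limma adjusted p = 0.0358). The Runx1 call was lost when any of 8 tumours was dropped (adjusted p up to 0.0729). Lmo2, an adaptor of that complex, stood at 7.82 ± 0.47 and 8.13 ± 0.22 (adjusted p = 0.294), and the list's median difference was -0.06.

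Of 9 cofactors and modifiers of Myb, 1 was called, beside 14.5% of all genes in either direction. Fbxw7, the substrate arm of a ubiquitin ligase that marks Notch1, Myc and Myb for degradation, read 8.67 ± 0.19 in the Vav-SB and 8.18 ± 0.18 in the CD4-SB tumours, without overlap (1.40-fold, limma adjusted p = 0.00592), and passed with the marker covariate (0.69, adjusted p = 0.0356). Psip1 and Men1, which tether MLL complexes to chromatin, differed by 0.38 and 0.37 (adjusted p = 0.0833 and 0.114), and the coactivator Ep300 by 0.17 (adjusted p = 0.289).

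Mybl1 was far higher in 1 tumour than in the rest. It stood at 9.98, 7.37, 6.43, 6.70, 7.61, 6.48 and 7.39 in Vav-SB replicates 1 to 7. In CD4-SB replicates 1 to 7 it stood at 6.87, 7.22, 5.43, 6.40, 6.43, 6.50 and 6.30. Vav-SB replicate 1 lay far above the rest, 7.9-fold over the mean of the 6 others of its model, and the remaining tumours of both models overlapped. The means were 7.43 ± 1.22 and 6.45 ± 0.55 (SD, n = 7 each), a difference of 0.98 ± 0.46 (SE) that did not pass (limma, adjusted p = 0.182), with a fold interval of 0.997 to 3.89. Without Vav-SB replicate 1 the Vav-SB mean was 7.00 ± 0.52 (SD, n = 6) and the difference 0.55 (adjusted p = 0.229).

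The high value was seen in most Mybl1 probe sets, again without their places along the transcript. Vav-SB replicate 1 was the highest of all 14 tumours in 17 of the 18 probe sets, and stood above the mean of the 6 others by a median of 3.10 and by up to 4.00 on the log2 scale. Probe set 4825757, for example, read 12.16 there and at most 10.12 in the other Vav-SB tumours, and probe set 4400246 read 8.58 and at most 5.04. The exception was probe set 5487035, with 9.55 ± 0.24 in the Vav-SB and 9.36 ± 0.53 in the CD4-SB tumours, which lay 0.13 below the others in that tumour. By Dixon's ratio, which sets the gap to the nearest tumour against the range of the 7, the gene reached 0.668, past the 95% critical value, and 10 of the 18 probe sets passed it in that tumour. In all, 4.87% of genes and 3.35% of probe sets had their highest Vav-SB tumour past it. Probe set 4686015 of Mybl1 passed it at the low end, at 2.93 in CD4-SB replicate 3, as did 2.99% of all probe sets. Of the 18 probe sets, 0 were called between the models in limma, with 7 at an unadjusted p under 0.05.

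**Figure D3:**
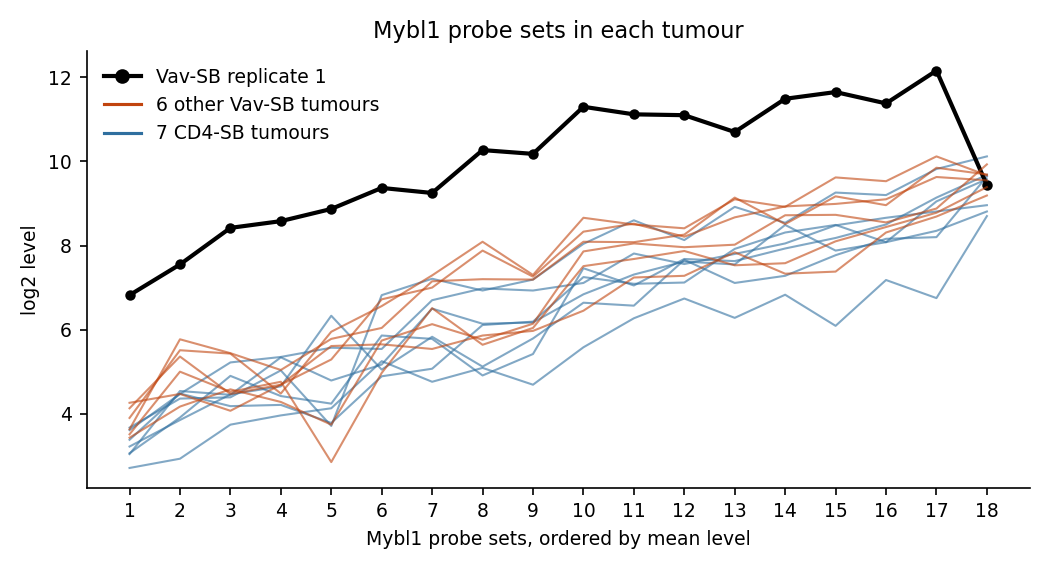
Log2 level of the 18 Mybl1 probe sets, ordered by mean level, in each of 14 tumours; the black line is Vav-SB replicate 1. It lies above every other tumour in 17 probe sets and among them in the last.

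In Vav-SB replicate 1 the other members and the 6 nearest genes of Mybl1 were within the range of the model. Its Myb level, 10.27, was within the range of the 6 others, 10.16 to 10.92, and its Mybl2 level, 7.88, within 6.95 to 7.89. The 3 nearest protein-coding genes on each side of Mybl1 on chromosome 1 were taken by position, with values known. On one side Vcpip1 was at 9.14 (others 8.94 to 9.20), Sgk3 at 6.29 (5.53 to 6.40) and Mcmdc2 at 5.10 (5.09 to 5.30). On the other Vxn was at 5.91 (5.68 to 6.04), Adhfe1 at 6.57 (6.33 to 7.47) and Rrs1 at 10.0 (9.70 to 10.30). Cops5, on the neighbour list but farther away, was at 10.62, above the others' 9.72 to 10.46. Between the models Sgk3, a kinase related to Akt, was 2.42-fold higher in CD4-SB (limma, adjusted p = 0.0145; -0.41 with the marker covariate, adjusted p = 0.639).

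Known programmes of A-Myb were also measured. Of 8 measured piRNA and meiotic genes, limma called 0, beside 14.5% of all genes, and 1 had an unadjusted p under 0.05. Their list mean lay between 5.41 and 5.56 in Vav-SB and 5.27 and 5.63 in CD4-SB. In Vav-SB replicate 1, Mael, a piRNA pathway protein, was at 5.04 (others 4.84 to 5.06) and the Tudor protein gene Tdrd1 at 5.47 (others 5.33 to 5.48). The RNA helicase gene Ddx4 was at 4.86 there, above the others' 4.60 to 4.76. These levels are low beside the median gene level of 7.22, and values near background limit what can be seen. Of 6 germinal centre B genes 1, Gcsam, was called, 2.89-fold higher in CD4-SB (limma adjusted p = 0.0459), beside 7.18% of all genes. The Gcsam call was lost when any of 10 tumours was dropped (adjusted p up to 0.0946). Gcsam was at 4.70 in Vav-SB replicate 1, within the others' 4.44 to 6.31, and Bcl6, the master repressor of germinal centre cells, at 8.44, within 7.58 to 8.85.

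Mybl2 overlapped between the models. It stood at 7.88, 7.89, 6.95, 7.08, 7.72, 7.80 and 7.42 in Vav-SB replicates 1 to 7. In CD4-SB replicates 1 to 7 it stood at 6.90, 7.59, 6.0, 7.55, 6.53, 6.88 and 7.95. CD4-SB held both the highest tumour, replicate 7, and the lowest, replicate 3. The means were 7.53 ± 0.39 and 7.06 ± 0.68 (SD, n = 7 each), a difference of 0.48 ± 0.27 (SE) that did not pass (limma, adjusted p = 0.28), with a fold interval of 0.931 to 2.08. All 7 probe sets had a positive difference, from 0.26 to 0.91, and 0 were called, with 1 at an unadjusted p under 0.05. With the marker covariate the sign turned, to -0.43 (adjusted p = 0.506).

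Mybl2 was set beside the G2/M genes it is known to activate. Within CD4-SB, Mybl2 and the mean of 24 G2/M genes had r = 0.89 and rho = 0.82 (exact permutation p = 0.00536 and 0.0341, n = 7), and r was 0.91 without the 2 tumours farthest from the median. Within Vav-SB they had r = 0.74 and rho = 0.57 (exact permutation p = 0.0431 and 0.2, n = 7), and r fell to 0.31 without the 2 farthest. None of 18 relations, 3 genes with 3 lists in 2 models, passed after adjustment; the smallest adjusted p was 0.0965, that of Mybl2 in CD4-SB. In CD4-SB replicate 3 the G2/M mean was 6.96, where the 6 others of its model were at 8.58 to 9.74, and without this tumour r in CD4-SB was 0.83 (exact permutation p = 0.075, n = 6). Mybl2 also ran against the marker mean in CD4-SB (r = -0.81, rho = -0.75, exact permutation p = 0.0278 and 0.0663, adjusted 0.25 and 0.398, n = 7; r = -0.68 without the 2 farthest). Whether the share of other cells plays a part in the G2/M relation was not tested.

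For Myb the same relation had r = -0.05 and rho = 0.14 in CD4-SB (exact permutation p = 0.9 and 0.783, n = 7), and r = -0.46 and rho = -0.43 in Vav-SB (exact permutation p = 0.305 and 0.354, n = 7). Without the 2 farthest tumours r was 0.02 and -0.15. Mybl1 had r = 0.72 and rho = 0.29 in CD4-SB (exact permutation p = 0.0885 and 0.556, n = 7), with r = 0.34 without the 2 farthest. In Vav-SB it had r = 0.67 and rho = 0.93 (exact permutation p = 0.133 and 0.00675, adjusted 0.479 and 0.121, n = 7), with r = 0.81 without the 2 farthest. The differences between these coefficients were not tested.

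**Figure D4:**
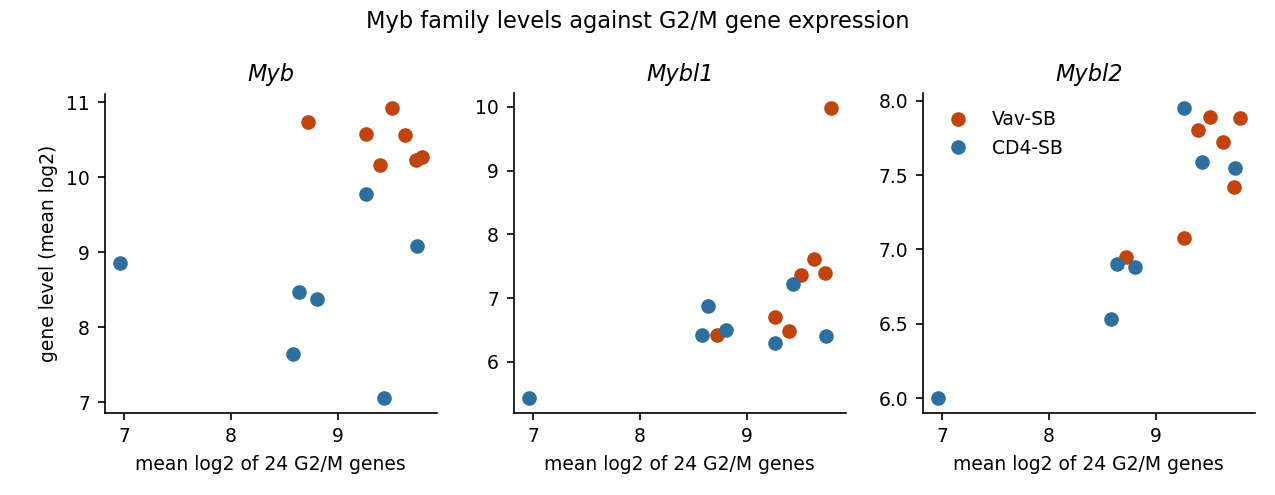
Levels of Myb, Mybl1 and Mybl2 (mean log2) against the mean log2 level of 24 G2/M genes, 1 point per tumour. Mybl2 and the G2/M mean had r = 0.89 within CD4-SB and 0.74 within Vav-SB, and neither passed after adjustment over 18 relations. The CD4-SB tumour at 6.96 is replicate 3.

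All 24 measured G2/M genes had a positive difference, with a median of 0.63. In limma 0 of them were called, beside 7.28% of all genes called higher in Vav-SB, while 9 had an unadjusted p under 0.05. With array weights 7 were called higher in Vav-SB, in a fit that called 2993 of 15803 genes in either direction against 2284 in the main fit. Leaving out CD4-SB replicate 4 or 2 gave 2 and 1 calls, with 2371 and 2300 genes called in all. The mitotic phosphatase gene Cdc25c differed by 0.94 (adjusted p = 0.0907), the cyclin F gene Ccnf by 0.61 (0.0951), the cytokinesis motor Kif23 by 0.88 (0.0973) and the mitotic kinase gene Aurka by 0.79 (0.105). All 15 S-phase genes were positive too, with a median of 0.30. Beside the 7.28% of all genes, 1 of the 15 was called: Tyms, the thymidylate synthase gene (1.92-fold, limma adjusted p = 0.0478). That call was lost when any of 10 tumours was dropped (adjusted p up to 0.0936). Ccne2, a cyclin of S-phase entry, differed by 1.10 (adjusted p = 0.0508), Mcm7, a helicase subunit, by 0.69 (0.124) and Gins1, its partner, by 0.69 (0.192).

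The products of MuvB and DREAM genes hold G2/M promoters silent or, with Mybl2, open them. Of 12 measured, 4 were called higher in Vav-SB, beside 7.28% of all genes, and 0 lower. Leaving out 1 tumour moved the first count to between 2 and 7, highest without Vav-SB replicate 3. Rbl2, the p130 pocket protein of the repressive form, chosen after its values were seen, was at 9.02 ± 0.18 and 9.75 ± 0.64, a difference of -0.72 (limma, adjusted p = 0.0514). It passed as higher in CD4-SB in 8 of 23 alternative settings, among them array weights (adjusted p = 0.0136) and leaving out CD4-SB replicate 3, 4 or 7 (0.0449, 0.0262 and 0.0115). Dyrk1a, the kinase that assembles the repressive form, was at 10.02 ± 0.13 and 9.60 ± 0.11 without overlap (1.34-fold, limma adjusted p = 0.00253). Lin9, a core subunit that binds Mybl2, was at 7.58 ± 0.33 and 6.70 ± 0.40 (1.83-fold, adjusted p = 0.00636). Lin52, another core subunit measured by 2 probe sets, was 1.25-fold higher (adjusted p = 0.0384), and Foxm1, the factor that follows Mybl2 on these promoters, 1.84-fold (adjusted p = 0.0496). The calls of Lin52 and Foxm1 were each lost when any of 9 tumours was dropped (up to 0.0786 and 0.0975). With the marker covariate 0 of the 12 were called; Foxm1 went from 0.88 to 0.06, Lin9 from 0.87 to 0.40 and Dyrk1a from 0.42 to 0.35.

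**Figure D5:**
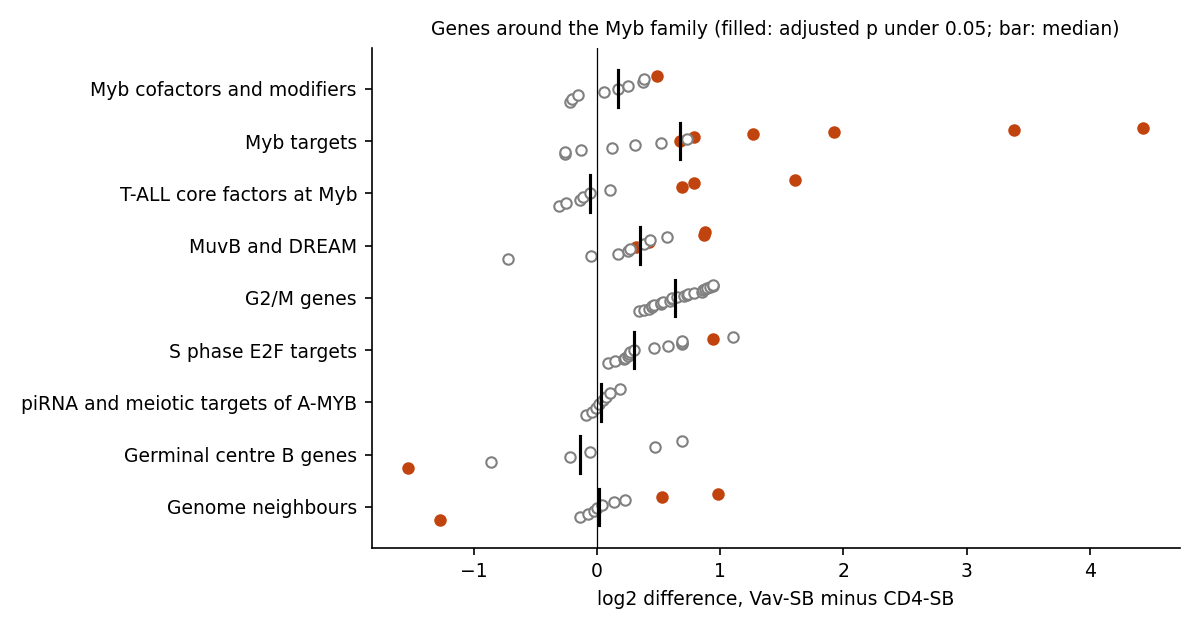
Log2 difference, Vav-SB minus CD4-SB, of each measured gene of 9 lists around the Myb family; filled points have an adjusted p under 0.05 and the black bar is the list median. The Myb targets reach 4.43 (Rag1), and all 24 G2/M genes lie to the right of 0 with none filled.

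Members were compared in pairs. Taken within each tumour, Myb minus Mybl2 averaged 2.96 ± 0.53 for Vav-SB and 1.41 ± 1.02 for CD4-SB, so Myb differed between the models by 1.55 more than Mybl2 on the log2 scale (two-sided exact permutation p = 0.00291, adjusted over 3 pairs 0.00874, n = 7 each). With 1 tumour per title number this was 1.19 and did not pass (exact permutation p = 0.0212, adjusted over 3 pairs 0.0636, n = 7 and 4). Myb minus Mybl1 differed by 1.05 (exact permutation p = 0.163, adjusted p = 0.244), and by 1.51 without Vav-SB replicate 1 (exact permutation p = 0.021, adjusted over 3 pairs 0.0315). Mybl1 minus Mybl2 differed by 0.50 (exact permutation p = 0.344). Within a model, Myb and Mybl1 had r = -0.27 in Vav-SB and -0.57 in CD4-SB, and Mybl1 and Mybl2 r = 0.55 and 0.56, given as descriptions over 7 tumours.

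Genes most like each member were found by Pearson's r over the 14 tumours after the mean of each model was taken away, among genes above the median level, and are descriptions. For Myb they were Gba2 (0.916), Tacc1 (0.914), Dguok (0.911), Fam53b (0.902) and Ttc19 (0.898). None of the 5 passed between the models, where 14.5% of all genes did: Fam53b differed by 0.46 (limma, adjusted p = 0.191) and Tacc1 by -0.04 (adjusted p = 0.89). For Mybl2 they were Cnih1 (0.971), Pole (0.965), Rad54l (0.962), Chd1l (0.961) and Dtl (0.961). Pole is the leading-strand DNA polymerase, Rad54l a recombination protein and Dtl a part of a ubiquitin ligase. For Mybl1 they were Ptpra (0.909), Brd8 (0.872), Trim37 (0.838), Ppm1e (0.798) and Rfx3 (0.797). Among Vav-SB tumours these 5 were highest in replicate 1. There Trim37 was at 9.84 (others at most 8.78), Ppm1e at 9.82 (9.01), Rfx3 at 10.02 (8.80), Brd8 at 9.78 (9.50) and Ptpra at 9.17 (8.94). Within CD4-SB r was 0.77 for Ptpra, 0.78 for Trim37, 0.53 for Ppm1e, 0.48 for Brd8 and 0.32 for Rfx3. The levels in replicate 1 and these r values come from the 14 tumours used to choose the genes. Neither is a separate check. Between the models Rfx3 (1.59, limma adjusted p = 0.000334), Brd8 (0.36, 0.022) and Ppm1e (1.34, 0.0245) passed, and Ptpra and Trim37 did not. Of all genes 14.5% passed in either direction. The high value of replicate 1 is part of the Vav-SB mean of each of these 5 genes.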

How the data were processed

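RNA of 14 thymic lymphomas was measured on exon arrays. Per the labels' protocols, total RNA of frozen tumours was amplified into cDNA and labelled with biotin; amplification adds spread and may favour some regions of a transcript. The deposited log2 values are 1 per probe set and tumour; per the submitters' processing notes RMA and Partek were used (no version given), and the log base was read from the range, 2.03 to 14.03. Low values lie near background, so their folds are understated.

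Symbols were updated through a gene table of GRCm38.p6. Probe sets were averaged per gene and tested with limma 3.58.1 in R 4.3.3 (lmFit, eBayes), with Benjamini-Hochberg adjustment over all 15803 genes, or over all 179496 probe sets, and a threshold of 0.05. Probe sets apart from their gene were tested with diffSplice on 177027 probe sets of genes with at least 3. Single values were tested by exact permutation over 3432 splits or 5040 pairings. Dixon's critical value for 7 values is 0.568. The scripts were tested on simulated data.

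Groups follow the strain label, and replicates are numbered in accession order. Whether each tumour is from its own mouse is not in the labels, and p-values reflect only how these samples vary, which may be technical. The members and the 17 gene lists (195 entries, some on several lists) were chosen with earlier results of these data known. Named genes are the members, up to 4 of each list by smallest adjusted p, the 5 most like each member, and probe sets apart from their gene or with a tumour apart; others are marked. Alternatives were other summaries, filters, normalizations, weights and priors, title numbers, a marker covariate, and leaving out each tumour.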

Additional observations from a re-analysis of the deposited data

Results flagged for a closer look

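The tests for a tumour apart from its model give about 1 such group in 20 by chance. The Mybl1 level of Vav-SB replicate 1, 9.98, lay apart from the 6 others of its model. So did 10 Mybl1 probe sets in the same tumour, which are not independent of each other: 4400246 at 8.58, 4476871 at 11.49, 4531325 at 6.82, 4825757 at 12.16, 4957804 at 11.38, 4999551 at 9.37, 5045335 at 10.18, 5218047 at 11.10, 5249045 at 11.12 and 5568493 at 8.42. Among CD4-SB tumours the Mybl1 probe set 4686015 in replicate 3, at 2.93, lay below the others; 2.99% of all probe sets had such a lowest CD4-SB tumour. The levels of Myb and Mybl2 held no such tumour in either model.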

How the results depend on the processing

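Myb passed in 22 of 23 alternative settings (1.79 to 2.28), and Mybl1 and Mybl2 passed in 0 of 22 and 0 of 23 (0.23 to 1.15 and -0.43 to 0.79). With the marker covariate 292 genes were called; Myb was 2.11 and no longer passed (adjusted p = 0.0721) and Mybl2 turned to -0.43. There the calls higher in Vav-SB were 1 cofactor (Fbxw7), 1 Myb target, 1 T-ALL core factor, 0 MuvB, 0 S-phase, 1 germinal centre (Fas), 0 neighbour, 5 double-positive, 0 T-lineage and 0 stromal genes. Calls higher in CD4-SB were 0 for germinal centre, neighbour, myeloid, dendritic, B-cell and stromal genes. The covariate follows the models closely, so it widens the errors. With the median over probe sets, 1 MuvB gene and 1 NK gene were called higher in CD4-SB, and 0 S-phase and 1 T-lineage gene higher in Vav-SB. With 1 tumour per title number, Myb minus Mybl2 was 1.19 and no longer passed. There 1 G2/M and 1 T-lineage gene were called higher in Vav-SB, and 5 dendritic, 5 B-cell and 1 NK gene higher in CD4-SB. In either direction the median over probe sets called 1766 and 1 tumour per title number 2067 of 15803 genes. Among probe sets above the median level diffSplice called 1348, and 0 of 16 tested in Myb.

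List counts under the next settings were added after seeing the data. The main fit called 2284 of 15803 genes in either direction. Array weights called 2993 and the random block 2769 of 15803. Bright probe sets alone gave 2301 of 12952 and genes above the median level 1897 of 7901. List counts under these settings are to be read beside these totals. Array weights gave 3 cofactor, 7 G2/M and 3 S-phase calls higher in Vav-SB, and 1 MuvB, 5 dendritic, 4 B-cell and 1 NK call higher in CD4-SB. The title number as a random block gave 2 cofactor and 2 S-phase calls higher in Vav-SB, and 1 MuvB, 4 B-cell and 1 NK call higher in CD4-SB. Bright probe sets alone gave 2 MuvB and 1 G2/M call higher in Vav-SB, and 1 MuvB and 0 germinal centre calls higher in CD4-SB. Genes above the median level gave 2 S-phase calls higher in Vav-SB, and 1 MuvB, 0 germinal centre, 0 neighbour and 3 B-cell calls higher in CD4-SB.

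Leaving out each tumour gave 1628 to 2518 called genes, Myb at 1.79 to 2.25, Mybl1 at 0.55 to 1.14 and Mybl2 at 0.30 to 0.62. It gave 1769 to 2585 diffSplice calls with 2 to 3 in Myb. Myb minus Mybl1 ran from 0.69 to 1.51, highest without Vav-SB replicate 1 (exact permutation p = 0.021, adjusted over 3 pairs 0.0315), Myb minus Mybl2 from 1.23 to 1.79 and Mybl1 minus Mybl2 from 0.13 to 0.70. Calls higher in Vav-SB ran from 1 to 3 for cofactors, 2 to 7 for MuvB, 0 to 2 for G2/M, 0 to 3 for S-phase, 1 to 3 for T-lineage and 0 to 1 for erythroid genes. Calls higher in CD4-SB ran from 0 to 1 for T-ALL core, MuvB, germinal centre and NK genes, 5 to 9 for myeloid, 1 to 5 for dendritic, 1 to 4 for B-cell and 2 to 4 for stromal genes. The Mybl2 and G2/M correlation ran from 0.45 to 0.85 in Vav-SB, above an unadjusted p of 0.05 without replicate 1, 2, 3, 4 or 5, and from 0.83 to 0.95 in CD4-SB, above it without replicate 3; with 1 tumour per title number it was not run in CD4-SB, which leaves 4.

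No paired analysis was possible because no first title number occurs in both models and the titles are not said to give replicate numbers. With that number as a random block Myb was 2.04 (limma, adjusted p = 0.000516). The correlation within a title number was estimated at -0.162. A negative value makes the errors smaller, here 0.30 against 0.33 in the main fit. This setting is therefore no guard against tumours that share a mouse. Dim probe sets limit what can be seen near background.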
